A study of Homo sapiens with 4 samples.

Results

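The 10 genes described here encode proteins that make, bind or read the poly(A) tail of messenger RNA: the poly(A)-binding proteins *PABPC1*, *PABPC4* and *PABPN1*, the poly(A) polymerases *PAPOLA* and *PAPOLG*, the PABP-interacting proteins *PAIP1* and *PAIP2*, and the La-related proteins *LARP1*, *LARP4* and *LARP4B*. They were chosen by symbol, and all 10 were found among the 20457 symbols listed in each library. RNA was sequenced from HEK293, a long-established human cell line of embryonic kidney origin. Of the 4 libraries, 2 came from cells given a negative control siRNA (siControl, genotype labelled WT) and 2 from cells given siRNA against *CNOT4* (siCNOT4, genotype labelled CNOT4 knockdown). All cells received siRNA at 10 nM for 72 h, so no library represents untransfected cells, and the knockdown acts in whole cultures that still hold *CNOT4* mRNA. CNOT4 is a RING-type E3 ubiquitin ligase associated with CCR4-NOT, the main deadenylase complex of the cell, and the study asked whether CNOT4 takes part in how codon usage affects expression.

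A newly cleaved pre-mRNA receives its tail in the nucleus from a canonical poly(A) polymerase, and the nuclear protein PABPN1 coats the growing tail and helps to set its length. In the cytoplasm PABPC1 takes over the tail, contacts eIF4G at the capped end to favour translation, and is both a barrier to and a partner of the deadenylases. PAIP1 favours this contact, PAIP2 removes PABP from the tail, LARP1 binds mRNAs that begin with a 5′ terminal oligopyrimidine (TOP) tract, and LARP4 and LARP4B bind PABP and mRNA and favour mRNA stability.

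Values are TPM, a transcript abundance normalised for length that sums to 1000000 in each library. TPM keeps no read totals. Low values moved in steps that matched whole reads, and with the longest GENCODE 29 transcript as the length of each gene these gave an approximate depth of 37.0 to 37.7 in units of 1e6 reads per library. With the summed exon length the estimate was 55.2 to 56.3 in the same units, so it depends on the gene lengths used. *CNOT4* had 6.43 and 4.73 TPM in siControl and 3.38 and 3.81 TPM in siCNOT4, and its log2 fold change of -0.51 did not pass the test (limma adjusted p = 0.184), though it passed at -1.07 once libraries were centred on their medians (0.0414). Of 8 genes typical of HEK293, 7 had at least 1 TPM in every library, the exception being *NEFM* (0.412 to 0.916 TPM). Of 7 genes listed for other cell types, 5 were at 0.359 TPM or less in every library, *COL1A1* had 0.906 to 6.60 TPM, and *EPCAM*, an epithelial adhesion gene, had 238 to 262 TPM. The siControl libraries differed from each other across most genes: replicate 1 was higher than replicate 2 in 79.9% of 14208 tested genes, with a median difference of 0.38 on the log2(TPM + 1) scale. Between siCNOT4 and siControl, the median tested gene had a log2 fold change of 0.50, so a positive value below 0.50 is a smaller increase than that of the median gene.

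The 10 mRNAs covered a wide range of abundance. In siControl the order of mean TPM was *PABPC1* (625 ± 143), *PAIP2* (306 ± 33.8), *LARP1* (162 ± 55.0), *PABPN1* (135 ± 10.9), *PABPC4* (78.2 ± 16.8), *PAIP1* (73.9 ± 1.78), *PAPOLA* (70.7 ± 26.0), *LARP4* (25.1 ± 14.5), *LARP4B* (20.7 ± 7.78) and *PAPOLG* (8.84 ± 4.15; mean ± SD, n = 2 for each). Within siControl the ranges of *LARP1* and *PABPN1* overlapped, as did those of *PABPC4*, *PAIP1* and *PAPOLA*, and those of *LARP4* and *LARP4B*. The remaining neighbours in this order were separated in both libraries. In siCNOT4 the order was *PABPC1* (750 ± 32.7), *PAIP2* (493 ± 12.7), *LARP1* (184 ± 7.65), *PABPC4* (129 ± 7.0), *PAPOLA* (118 ± 3.57), *PABPN1* (103 ± 8.38), *PAIP1* (94.9 ± 2.69), *LARP4* (51.5 ± 0.596), *LARP4B* (35.4 ± 1.22) and *PAPOLG* (15.0 ± 0.977). Only *PABPN1* and *PAIP1* overlapped as neighbours there. The *PABPN1* symbol stood above *PABPC4* and *PAPOLA* in both siControl libraries and below them in both siCNOT4 libraries. An overlapping readthrough symbol, *BCL2L2-PABPN1*, had 187 and 207 TPM in siControl and 147 and 164 TPM in siCNOT4. The place of *PABPN1* in this order therefore depends on how reads were divided between the 2 symbols, which is not known. *PAPOLA* and *PAIP1*, which overlapped in siControl, were separated in siCNOT4 with *PAPOLA* the higher.

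**Figure D1:**
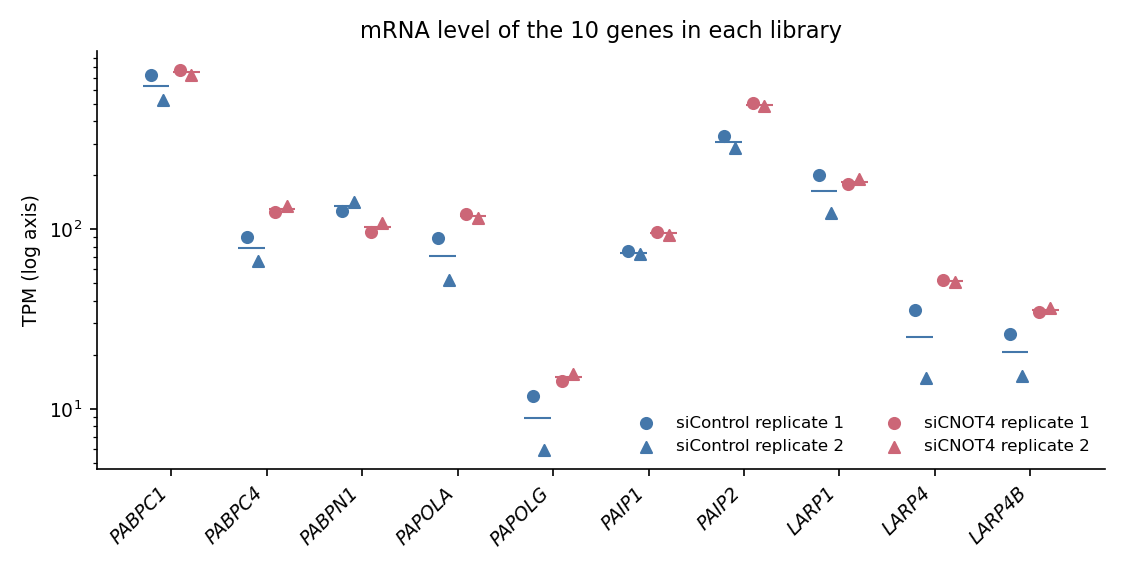
TPM (log axis) of each gene in the 4 libraries; circles are replicate 1, triangles replicate 2, and short lines the group means. The siCNOT4 points lie above both siControl points for 8 genes and below them for *PABPN1*, while those of *LARP1* lie between the siControl points.

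Groups were compared with limma on log2(TPM + 1) over all 14208 genes with a mean of at least 1 TPM, with Benjamini-Hochberg adjustment over all of them. *PAIP2* was the only one of the 10 with an adjusted p under 0.05, against 12.6% of all tested genes (11.3% higher and 1.3% lower in siCNOT4). The share of the 10 is thus close to the background. At an unadjusted p under 0.05 there were 5 of the 10, against 42% of all tested genes, and 9 of the 10 had a positive log2 fold change, against 81.2% of all tested genes. The median of the 10 was 0.71, beside 0.50 for all tested genes. The 2 groups did not overlap in 9 of the 10 genes, 8 higher and 1 lower in siCNOT4, and this was so for 77.1% of all tested genes (66.4% higher, 10.6% lower). Nothing says that the 2 libraries of a group came from separate cultures, so p values measure only the spread between these libraries, which may be technical. In bulk RNA, fewer cells with a transcript and less of it per cell cannot be told apart.

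The number called rested on single libraries. Without siControl replicate 1, 9 of the 10 were called higher and *PABPN1* lower, beside 70.9% of all tested genes called higher and 8.73% lower. Without siControl replicate 2, 6 of the 10 were called higher and *PABPN1* lower, beside 47.2% and 10.3%. With siCNOT4 replicate 1 or 2 left out in turn, limma called 0 of the 10, beside 3.35% and 3.17% of all tested genes.

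*PAPOLA* (chromosome 14, 96501433 to 96567111 in GRCh38, the build of all positions given here) encodes the main canonical poly(A) polymerase. It had 89.1 and 52.3 TPM in the siControl libraries against 121 and 116 TPM in siCNOT4. Both siCNOT4 libraries were above both siControl libraries, but the siControl libraries were themselves 0.76 apart on the log2(TPM + 1) scale. The fit put siCNOT4 higher by 0.79 on that scale, with an SE of 0.27 and a limma adjusted p of 0.0837. *PAPOLG* (chromosome 2, 60756230 to 60802085), its nuclear paralogue, was the least abundant of the 10, with 11.8 and 5.90 TPM in siControl and 14.3 and 15.7 in siCNOT4. Its siCNOT4 libraries were again the higher ones, with siControl replicate 2 far below the rest. Its log2 fold change of 0.77 (SE 0.36) had a limma adjusted p of 0.154. An estimated 526 to 1153 reads lay behind each *PAPOLG* value, and the 95% exact Poisson interval of the lowest one was 5.40 to 6.42 TPM for counting error only, so the gap to 11.8 TPM in the other siControl library is larger than counting error.

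*PABPN1* (chromosome 14, 23321289 to 23326185) encodes the nuclear poly(A)-binding protein. It was the only gene of the 10 with lower values in siCNOT4: 127 and 142 TPM in siControl against 96.7 and 109 TPM. The groups did not overlap, and replicate 1 minus replicate 2 was -0.16 in siControl and -0.17 in siCNOT4 on the log2 scale. For the median tested gene the siControl difference was 0.38, so the small value for *PABPN1* goes against the shift of most genes. After TMM scaling its siControl libraries stood farther apart, at 7.07 and 7.69 on the log2 scale, against 6.33 and 6.46 in siCNOT4. The log2 fold change was -0.39 (SE 0.16, 95% interval -0.79 to 0.0079, limma adjusted p = 0.123), and of all tested genes 6.21% had a lower one. Relative to the median of all genes it was -0.89.

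The *PABPN1* value is uncertain in origin, because the readthrough gene *BCL2L2-PABPN1* overlaps it on the same strand. That symbol had 187 and 207 TPM in siControl and 147 and 164 TPM in siCNOT4 (log2 fold change -0.34, limma adjusted p = 0.139). The ratio of *BCL2L2-PABPN1* to *PABPN1* was 1.48, 1.45, 1.52 and 1.51 in siControl replicates 1 and 2 and siCNOT4 replicates 1 and 2. The 2 symbols therefore moved nearly in parallel, and the division of reads between them is not known from the values.

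*PABPC1* (chromosome 8, 100685816 to 100722809), the major cytoplasmic poly(A)-binding protein, had the highest level of the 10. It had 726 and 524 TPM in siControl and 773 and 727 TPM in siCNOT4. The groups did not overlap, but the gap between the nearest libraries was 0.729 TPM, and siControl replicate 2 was the library that stood apart. Its log2 fold change was 0.28 (SE 0.18, 95% interval -0.16 to 0.72, limma adjusted p = 0.259). *PABPC1* has near-identical retrocopies, and how the authors treated reads that map to several places is not given in the sources used here. The intronless *PABPC3* was listed at 0.0953, 0.0280, 0.400 and 0.101 TPM, far below *PABPC1* in each library.

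*PABPC4* (chromosome 1, 39560816 to 39576790), an inducible cytoplasmic paralogue, had 90.1 and 66.3 TPM in siControl and 124 and 134 TPM in siCNOT4. The nearest libraries were 34.4 TPM apart, a gap larger than that within either group. The log2 fold change was 0.73 (SE 0.20, 95% interval 0.25 to 1.22), with a limma adjusted p of 0.0584, just outside the threshold. The small nucleolar RNA gene *SNORA55* lies within the span of *PABPC4* on the same strand, and its symbol had 2.82, 2.98, 7.69 and 7.18 TPM.

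*PAIP2* (chromosome 5, 139341587 to 139369720) encodes a small inhibitor that displaces PABP from the tail and from eIF4G. It rose from 330 and 282 TPM in siControl to 502 and 484 TPM in siCNOT4. Every siCNOT4 library was above every siControl library, by at least 154 TPM. On the log2 scale the fold change was 0.69 (SE 0.14, 95% interval 0.35 to 1.03, limma adjusted p = 0.0396), and relative to the median of all genes it was 0.19. The call was lost with a pseudocount of 0.1 (limma adjusted p = 0.0547), with a mean TPM of at least 5 (0.0598), without a filter (0.0600) and after TMM scaling (0.768), while under quantile normalization it was kept (0.0291).

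*PAIP1* (chromosome 5, 43526267 to 43557758), the coactivator counterpart, had 75.2 and 72.7 TPM in siControl and 96.8 and 93.0 TPM in siCNOT4. Its replicates were the closest of the 10 in siControl, 0.049 apart on the log2 scale, and the groups did not overlap. A log2 fold change of 0.36 (SE 0.16) had a limma adjusted p of 0.142. The paralogue *PAIP2B* had 14.6 and 9.94 TPM against 16.1 and 15.6 TPM (log2 fold change 0.37, limma adjusted p = 0.350).

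*LARP1* (chromosome 5, 154712902 to 154817607), the TOP mRNA-binding protein, was the only gene of the 10 whose groups overlapped. It had 201 and 124 TPM in siControl and 179 and 190 TPM in siCNOT4, so that both siCNOT4 values fell between the siControl values. The fitted log2 fold change was 0.22 (SE 0.24, 95% interval -0.37 to 0.81, limma adjusted p = 0.493). It became -0.13 when siControl replicate 2 was left out and 0.57 when replicate 1 was, so 1 library set its direction.

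*LARP4* (chromosome 12, 50392383 to 50480004) had the largest log2 fold change of the 10. It had 35.3 and 14.9 TPM in siControl, and 51.9 and 51.0 TPM in siCNOT4. The siCNOT4 libraries were almost equal, whereas the siControl libraries differed by 1.20 on the log2 scale, more than the groups did. The estimate was 1.13 (SE 0.39, limma adjusted p = 0.0875). It was 0.53 when siControl replicate 2 was dropped and 1.73 when replicate 1 was.

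*LARP4B* (chromosome 10, 806914 to 931705), its paralogue, had 26.2 and 15.2 TPM in siControl and 34.5 and 36.3 TPM in siCNOT4. As for *LARP4*, siControl replicate 2 was the lowest library and both siCNOT4 libraries were the highest. The log2 fold change of 0.79 (SE 0.30) had a limma adjusted p of 0.104.

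The direction of several of these values depended on how libraries were scaled against each other. Scaling by a trimmed mean of M values (TMM), centring on library medians, quantile normalization and removal of each library's trend with transcript length and GC content brought the median log2 fold change of all tested genes from 0.50 to -0.042, -0.062, 0.019 and 0.0027. *PABPC4*, *PAPOLA*, *PAIP2*, *LARP4* and *LARP4B* remained positive under all 4, and *PABPN1* remained negative. *PABPC1* was -0.32 after TMM scaling, -0.28 after median centring and -0.17 after trend removal, but 0.42 under quantile normalization. *PAIP1* was -0.24, -0.21, -0.16 and 0.054 in the same order, and *LARP1* was -0.38, -0.34, -0.40 and 0.021. *PAPOLG* was below 0 only after trend removal (-0.088).

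The same scalings changed which of the 10 passed the test. *PABPN1* had a limma adjusted p of 0.0339 after trend removal (log2 fold change -0.74), 0.0448 under quantile normalization (-0.63), 0.0596 after TMM scaling (-0.99) and 0.0881 after median centring (-0.95). *LARP1* passed as lower after trend removal (limma adjusted p = 0.0470). After trend removal 22.8% of all tested genes were called (10.9% higher, 11.9% lower), beside 0 of the 10 higher and 2 lower. Under quantile normalization 15.3% were called (7.11% higher, 8.23% lower), beside *PAIP2* higher and *PABPN1* lower among the 10. With TMM scaling and median centring, limma called 0 of the 10, beside 9.9% and 3.82% of all tested genes.

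*PABPC4*, *LARP4* and *LARP4B* kept both siCNOT4 libraries above both siControl libraries under all 4 scalings, and *PABPN1* kept them below. After TMM scaling 3 of the 10 were separated as higher and 3 as lower (31.7% and 38.2% of all tested genes), and after median centring 5 and 3 (31.2% and 36.9%). Under quantile normalization these were 6 and 1 (36.2% and 33.4%), and after trend removal 4 and 3 (35.5% and 36.2%).

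**Figure D2:**
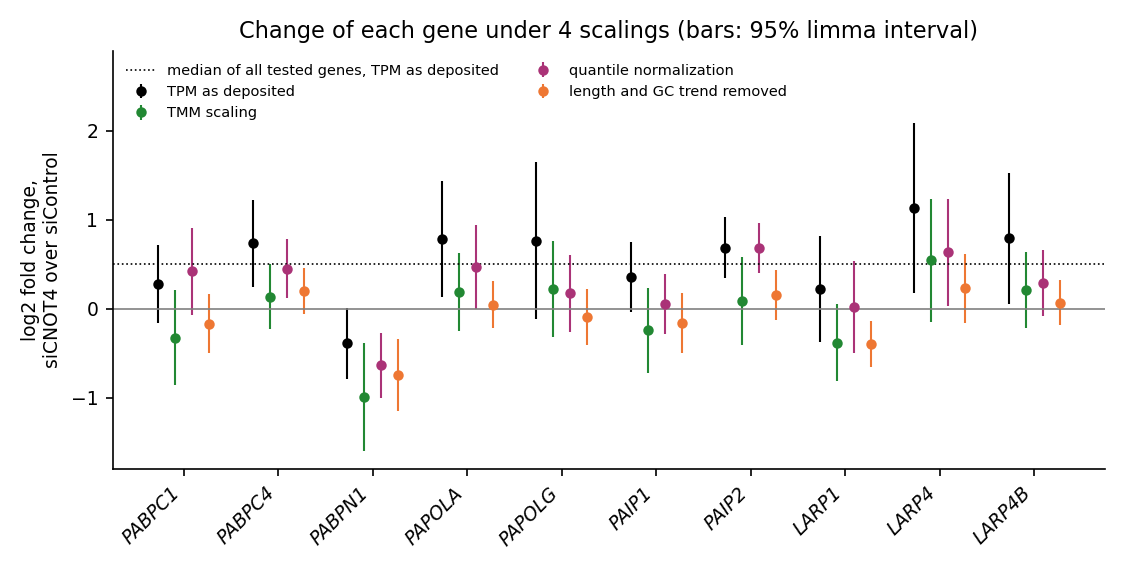
Log2 fold change of each gene with its 95% limma interval, for TPM as deposited and 3 scalings; the dotted line is the median of all tested genes for TPM as deposited (0.50). *PABPN1* lies below 0 under each scaling drawn, and *PABPC1*, *PAIP1* and *LARP1* lie above 0 as deposited and below it after TMM scaling.

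A ratio of 2 genes within a library is unaltered when the library is multiplied by 1 factor, as in TMM scaling, but can shift under quantile normalization and trend removal. For TPM as deposited, 6 such ratios were compared between groups. With 2 libraries against 2, an exact two-sided permutation test cannot give a p below 0.333, before or after adjustment over the 6 ratios. Of the 6 ratios, 5 were separated by group (exact permutation p = 0.333, adjusted 0.400 for each), and none could pass a threshold of 0.05. The share of other gene pairs with separated ratios was not computed, so this count has no background. Of single tested genes, 77.1% were separated as deposited.

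The *PABPC1*:*PABPC4* ratio was 8.06 and 7.90 in siControl against 6.21 and 5.41 in the siCNOT4 libraries, a log2 difference of -0.46. The siControl libraries, otherwise far apart, were close in this ratio. *PABPC1* made up 89.0% and 88.8% of the summed TPM of both paralogues in siControl and 86.1% and 84.4% in siCNOT4, so *PABPC1* stayed the predominant form.

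The ratio of *PABPC1* to *PABPN1*, separate genes for a cytoplasmic and a nuclear poly(A)-binding protein, was 5.72 and 3.68 in siControl. In siCNOT4 it was 8.0 and 6.70 (log2 difference 0.67, or 0.36 without siControl replicate 2). Among ratios formed after the values were seen, *PAPOLA*:*PABPN1* was 0.702 and 0.367 against 1.25 and 1.07, and *PABPC4*:*PABPN1* was below 1 in both siControl libraries (0.710 and 0.466) and above 1 in both siCNOT4 libraries (1.29 and 1.24). These ratios use the *PABPN1* symbol alone. The overlapping *BCL2L2-PABPN1* had 1.45 to 1.52 times its TPM. The level of the ratios, and any crossing of 1, thus depend on how reads were divided between the 2 symbols.

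The *PAIP1*:*PAIP2* ratio of coactivator to inhibitor was 0.228 and 0.258 in siControl against 0.193 and 0.192 in siCNOT4 (log2 difference -0.33). The separation between groups exceeded the spread within each. Set against the protein they bind, also after the values were seen, *PAIP2*:*PABPC1* was 0.454 and 0.539 against 0.649 and 0.665, while *PAIP1*:*PABPC1* overlapped (0.104 and 0.139 against 0.125 and 0.128).

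The *LARP1*:*LARP4* ratio showed the largest difference of the 6, with 5.70 and 8.32 in siControl and 3.45 and 3.72 in siCNOT4 (log2 difference -0.94). *LARP1* supplied 76.6% and 80.4% of the summed TPM of the 3 LARPs in siControl and 67.4% and 68.5% in siCNOT4. The *LARP4*:*LARP4B* ratio was 1.35 and 0.977 in siControl against 1.5 and 1.41 in siCNOT4 (log2 difference 0.34). It came to 0.11 when siControl replicate 2 was left out and to 0.57 when replicate 1 was. The polymerase ratio *PAPOLA*:*PAPOLG* overlapped, with 7.57 and 8.87 against 8.46 and 7.39 (log2 difference -0.051, exact permutation p = 0.667).

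The ratios were also taken after the 2 scalings that act on single genes, an alternative chosen after the data were seen. Under quantile normalization the *PABPC1*:*PABPC4* groups overlapped, with a log2 difference of -0.031, and after trend removal those of *LARP4*:*LARP4B* overlapped, with 0.16. *PAPOLA*:*PAPOLG*, which overlapped as deposited, was separated as higher in siCNOT4 under both (0.30 and 0.13). *PABPC1*:*PABPN1* (1.06 and 0.57), *PAIP1*:*PAIP2* (-0.63 and -0.31) and *LARP1*:*LARP4* (-0.61 and -0.63) remained separated under both in the direction of the deposited values.

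**Figure D3:**
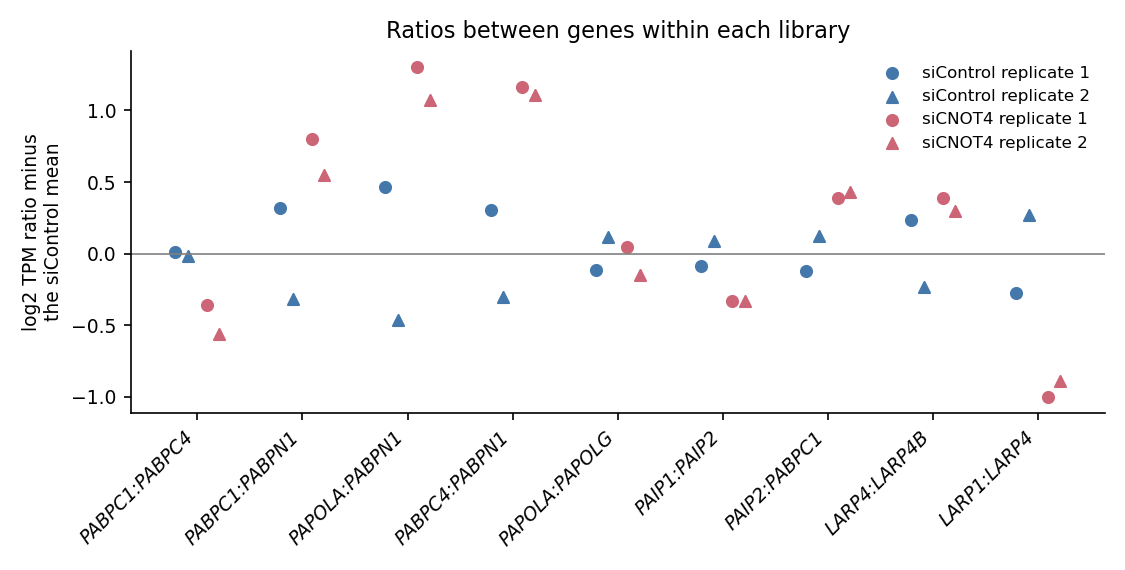
Log2 of the TPM ratio of pairs of genes in each library, minus the siControl mean of that ratio (colours and markers as for the plot of TPM by library). The siCNOT4 points lie apart from the siControl points in all ratios drawn except *PAPOLA*:*PAPOLG*, and *LARP1*:*LARP4* lies lowest. *PAPOLA*:*PABPN1*, *PABPC4*:*PABPN1* and *PAIP2*:*PABPC1* were formed after the values were seen. *PAIP1*:*PABPC1*, also formed then, overlapped between groups and is not drawn.

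The spread between the siControl libraries differed among the 10 genes. Replicate 1 was higher than replicate 2 in 9 of them, all but *PABPN1*, and the difference exceeded the median of all genes (0.38) in 7. It was smallest in the genes with the shortest transcripts: -0.16 in *PABPN1* (longest GENCODE 29 transcript 2768 nt), 0.049 in *PAIP1* (2782 nt) and 0.23 in *PAIP2* (2297 nt). It was 0.70 in *LARP1* (6595 nt), 0.75 in *LARP4B* (8546 nt), 0.89 in *PAPOLG* (6074 nt) and 1.20 in *LARP4* (6427 nt).

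Over the 10 genes the siControl difference had a Spearman rho of 0.770 with transcript length and 0.758 with the log2 fold change between groups, which shares those libraries. These are descriptions of 10 genes measured in the same libraries. The part of transcript length in the differences between groups was not tested beyond the trend removal given above, after which the median of the 10 was -0.021 and 5 of the 10 were positive. The difference between groups was larger than that between siControl libraries in 6 of 10 genes, beside 59.4% of all tested genes. Between the siCNOT4 libraries the widest difference among the 10 was that of *PABPN1* (-0.17).

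**Figure D4:**
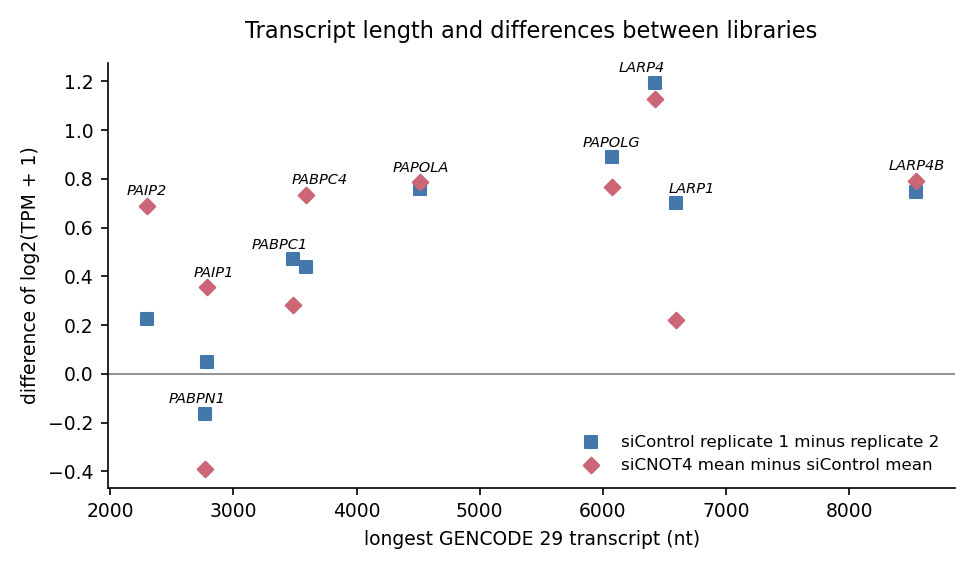
Difference in log2(TPM + 1) against the length of the longest GENCODE 29 transcript of each gene (nt), between the siControl libraries (squares) and between the group means (diamonds). The squares range from -0.16 in *PABPN1* to 1.20 in *LARP4*, and the diamond lies above the square for *PAIP2*, *PAIP1* and *PABPC4* but below it for *LARP1*.

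Other genes of poly(A) metabolism were read from 6 further lists, which together held 72 tested genes. Of these, 4 rose, 1 fell and the remaining ones did not pass the limma test, a called share below that of all tested genes (12.6%). The median log2 fold change was 0.63, beside 0.50 for all tested genes. The 10 noncanonical poly(A) and uridyl polymerases had a median of 0.82, with 1 higher, *FAM46C*, a cytoplasmic poly(A) polymerase (5.65 and 3.84 TPM in siControl, 11.9 and 12.6 TPM in siCNOT4, log2 fold change 1.23, limma adjusted p = 0.0475). *PAPD5*, which adenylates nuclear and small RNAs, had 7.44 and 2.56 TPM against 11.5 and 11.1 TPM (limma adjusted p = 0.101), and *PAPD4*, a cytoplasmic polymerase, had 57.6 and 29.2 TPM against 49.8 and 48.0 TPM (0.574). The 20 genes of the cleavage and polyadenylation complex had a median of 0.58, with 1 higher: *FIP1L1*, the subunit that contacts poly(A) polymerase, had 58.1 and 47.8 TPM in siControl and 95.4 and 88.6 TPM in siCNOT4 (log2 fold change 0.79, limma adjusted p = 0.0474).

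The 24 PABP partners, eIF4F subunits and release factors had a median of 0.63. *EIF4A1*, the helicase of eIF4F, fell from 2636 and 2345 TPM to 1525 and 1509 TPM (log2 fold change -0.71, limma adjusted p = 0.0288). *EIF4G1*, the scaffold that PABPC1 contacts, had 131 and 87.1 TPM against 178 and 204 TPM (log2 fold change 0.83, limma adjusted p = 0.0581). Thus the 2 genes of eIF4F named here had changes of opposite sign.

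Of 4 other La-module proteins, *LARP7*, which holds the 7SK RNA, rose from 46.7 and 39.9 TPM to 81.7 and 83.9 TPM (log2 fold change 0.92, limma adjusted p = 0.0379). *SSB*, the La protein itself, had 425 and 450 TPM against 557 and 559 TPM (log2 fold change 0.35, limma adjusted p = 0.0902), and *LARP1B* had 17.7 and 11.4 TPM against 22.5 and 21.1 TPM (0.176). The 4 other poly(A)-binding proteins tested, 1 of them the readthrough *BCL2L2-PABPN1* that overlaps *PABPN1*, had a median of 0.46. The 12 poly(A) exonucleases had a median of 0.82. Limma called 0 of either list at an adjusted p under 0.05. At an unadjusted p under 0.05 there were 1 and 6, beside 42% of all tested genes. After TMM scaling the medians of the 6 lists lay between -0.12 and 0.39, with 3 of the 6 below 0. Limma then called 0 of the 72 genes higher, beside 4.12% of all tested genes. It called 1 gene lower in the cleavage and polyadenylation list and 1 among the PABP partners, beside 821 of all 14208 tested genes. After trend removal 2 noncanonical polymerases were called higher. The cleavage and partner lists each had 1 higher and 4 lower. The exonucleases, which share genes with the partners, had 1 higher and other poly(A)-binding proteins 1 lower, beside 10.9% and 11.9% of all genes. Under quantile normalization 2 La-module proteins, 1 noncanonical polymerase and 1 PABP partner were higher, beside 7.11%. There 1 cleavage gene and 1 PABP partner were lower, beside 8.23%.

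**Figure D5:**
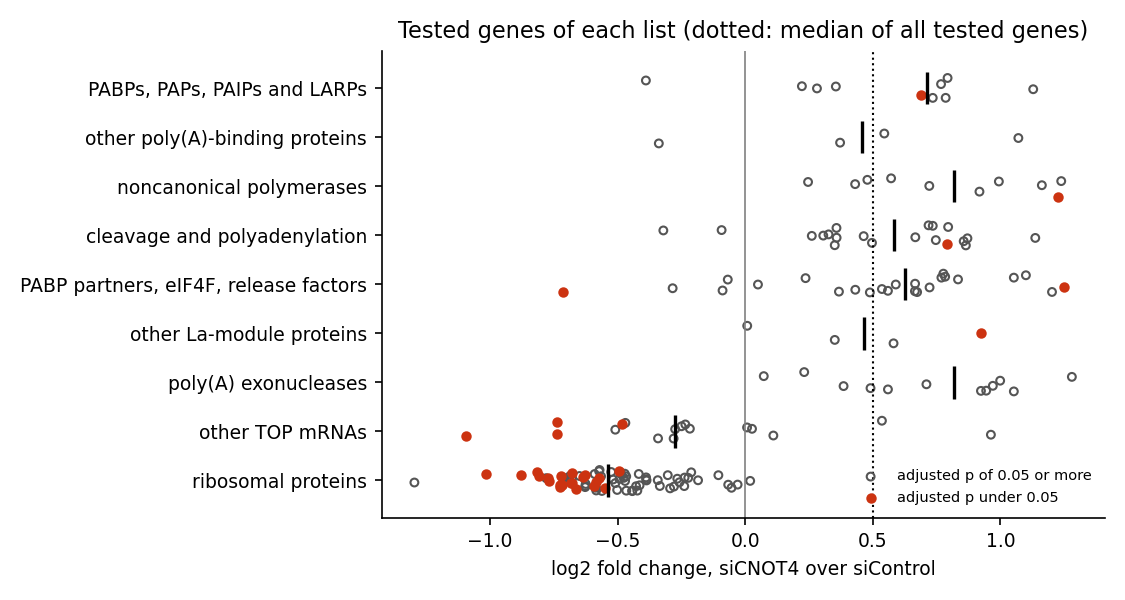
Log2 fold change of the tested genes of each list (filled: limma adjusted p under 0.05), with the list's median as a black bar and the median of all tested genes as a dotted line (0.50). The poly(A) lists spread around the dotted line, whereas the TOP mRNA lists, with medians of -0.27 and -0.54, lie mostly below 0.

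*PABPC1* mRNA carries a TOP tract, and LARP1 binds such mRNAs, so both were set against the other TOP mRNAs. The 78 tested ribosomal protein genes had a median log2 fold change of -0.54 and 21 fell, while 0 rose. Of all tested genes, 1.3% were called lower and 11.3% higher. The largest falls among those called were of *RPL13A* (3579 and 4578 TPM to 2000 and 2007 TPM), *RPS2* (3388 and 4538 to 2197 and 2065) and *RPL8* (4984 and 7082 to 3475 and 3277). The 17 other TOP mRNAs had a median of -0.27 and 4 fell: *VIM*, *EEF1B2*, *GNB2L1* and *EEF1G*. *EEF1G* and *EEF1B2*, elongation factor subunits, went from 2186 and 2332 TPM to 1672 and 1563 TPM and from 868 and 1041 TPM to 600.4 and 541 TPM, and *GNB2L1*, which encodes the ribosomal scaffold RACK1, from 9151 and 9082 TPM to 5661 and 5293 TPM. *VIM*, the intermediate filament gene, had the largest fall of the 4, from 917 and 650 TPM to 369 and 354 TPM. After TMM scaling the medians were -1.13 and -0.88 with 5 and 1 genes called lower, beside 821 of all 14208 tested genes. Under quantile normalization they were -0.18 and -0.061 with 8 and 3 called lower, beside 8.23% of all tested genes. After median centring 0 and 1 were called lower, beside 299 of all tested genes. Trend removal gave medians of -0.83 and -0.79, with 40 and 9 genes called lower and 0 called higher in either list. The shares of all tested genes were then 11.9% lower and 10.9% higher.

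*PABPC1* lay above these medians, at 0.28 as deposited, -0.32 after TMM scaling and 0.42 under quantile normalization. Its TPM relative to the geometric mean of the ribosomal protein genes was 0.439 and 0.256 in siControl against 0.591 and 0.579 in siCNOT4, and relative to that of the other TOP mRNAs it was 0.804 and 0.614 against 0.998 and 1.01. These ratios were formed after the values were seen, and for both the siCNOT4 libraries were above both siControl libraries. The log2 differences between groups were 0.80 and 0.52, but the siControl libraries were themselves apart in both ratios. Between siControl replicates 1 and 2, *PABPC1* differed by 0.47 and the median ribosomal protein gene by -0.32 on the log2 scale. The ratio of *LARP1* to the ribosomal protein genes was 0.122 and 0.0605 in siControl against 0.137 and 0.151 in siCNOT4 (log2 difference 0.74). Here too the siControl libraries were apart, with replicate 1 close to the siCNOT4 libraries, and *LARP1* itself differed by 0.70 between them.

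Likeness of pattern was measured as the Euclidean distance between log2(TPM + 1) profiles over the 4 libraries, each centred on its own mean, among genes with a mean of at least 5 TPM. The nearest to *PABPC1* were *B4GALT4* (distance 0.017), *METTL16* (0.023) and *COX15* (0.029), and the nearest to *LARP4* were *RBM7* (0.027), *E2F7* (0.039) and *DST* (0.040). Among the 10 genes themselves the closest pair was *PAPOLA* and *LARP4B* (0.092), and *PABPN1* was the farthest from any other, at 0.78 from *PAIP1*. With 4 libraries, 11394 genes searched and a shift shared by most genes, such neighbours are a description of these libraries.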

How the data were processed

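Poly(A)-selected, stranded libraries were made from total RNA, per the labels' protocols. The submitters' processing notes name FastQC 0.11.2, STAR 2.5.3a, featureCounts and the build hg19. The authors deposited 1 table of TPM per library, per the file headers. Annotation, gene lengths, strand use and treatment of multimapping reads are not given in the sources used here. The members, lists, tests and alternatives were chosen with earlier results of these data known. Titles gave the groups. Values were used as log2(TPM + 1), so a fold change understates the change of low genes. Features with a mean of at least 1 TPM were kept (14208) and fitted with limma 3.58.1 (R 4.3.3), with a mean trend and no covariates. The threshold was 0.05 after Benjamini-Hochberg adjustment. The fit was tried on simulated data that held no shift shared by most genes, unlike these libraries. Lengths, GC content and printed coordinates are from GENCODE 29 (GRCh38), not the authors' build. They were matched by symbol for 18438 features and by RefSeq synonym for 957, while 1062 did not match, and 96.7% of tested features had a length. From each list, all called genes were named where there were 6 or fewer, otherwise the 3 largest changes in each direction. The values of 1 called gene are not reported here. A further 8 genes, and the 3 nearest in pattern to PABPC1 and to LARP4, were named by rule. Alternatives covered scaling, filters, the pseudocount, the replicate block and each library left out. No protein sequences were used here.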

Additional observations from a re-analysis of the deposited data

How the results depend on the processing

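The depth behind each value is only estimated, and with 2 libraries a group no exact test of a single ratio can pass 0.05. Of the 10 genes under 13 alternatives (130 values), 90 kept their direction and side of the threshold, 20 passed it only in the alternative, 9 lost the call and 11 changed sign. The cause of these changes was not tested, except that fewer libraries enter a fit that leaves out a replicate. PABPN1 had a negative value in every alternative.

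Under TMM scaling, median centring and trend removal, the log2 fold changes that changed sign were -0.32, -0.28 and -0.17 for PABPC1, -0.24, -0.21 and -0.16 for PAIP1, -0.38, -0.34 and -0.40 for LARP1, and, after trend removal alone, -0.088 for PAPOLG. PAIP2 lost its call at 0.69 with a pseudocount of 0.1, without a filter, with a mean TPM of at least 5 and without the eBayes trend, at 0.086 after TMM scaling, at 0.13 after median centring and at 0.15 after trend removal. PABPN1 passed at -0.63 under quantile normalization and at -0.74 after trend removal. With the log2 of PAPOLA:PAPOLG, adding 1 TPM to both gave 0.018 in place of -0.051, quantile normalization 0.30 and trend removal 0.13. These last scalings of the ratios were added after the data were seen.

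The count of the 10 genes called higher was 0 in place of 1 with the pseudocount of 0.1, no filter, the mean TPM of at least 5, TMM scaling, median centring, trend removal and eBayes without a trend, and the count called lower was 1 under quantile normalization and 2 after trend removal in place of 0. Among all tested genes, 1608 higher and 184 lower became 478 and 80 with the pseudocount, 847 and 61 without a filter, 109 and 38 at a mean TPM of at least 5, 585 and 821 with TMM scaling, 244 and 299 with median centring, 1010 and 1169 under quantile normalization, 1499 and 1636 after trend removal, and 703 and 53 without the eBayes trend. The 8 lists together held 166 tested genes, with 4 called higher and 26 lower. Of these 26, 21 were ribosomal protein genes and 4 other TOP mRNAs. The 4 and 26 became 0 and 12, 0 and 5, 0 and 0, 0 and 8, 0 and 1, 5 and 13, 4 and 58, and 0 and 0 in the same order.

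The replicate numbers are not stated to pair cultures. The differences between replicates 1 and 2 in the 2 groups had a correlation of 0.171 across genes. With the replicate number as a block, 4 of the 10 genes were called higher, PABPC4 (0.73), PAPOLA (0.79), PAIP2 (0.69) and LARP4 (1.13), beside 3342 higher (23.5%) and 313 lower of all tested genes and 27 and 59 in the lists. The block changed no value of the 6 ratios.

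Leaving out each library in turn gave log2 fold changes of 0.046 to 0.52 for PABPC1, 0.52 to 0.95 for PABPC4, -0.47 to -0.31 for PABPN1, 0.41 to 1.16 for PAPOLA, 0.32 to 1.21 for PAPOLG, 0.33 to 0.38 for PAIP1, 0.58 to 0.80 for PAIP2, -0.13 to 0.57 for LARP1, 0.53 to 1.73 for LARP4 and 0.42 to 1.17 for LARP4B, and -0.17 to 0.064 for PAPOLA:PAPOLG, 0.36 to 0.99 for PABPC1:PABPN1 and 0.11 to 0.57 for LARP4:LARP4B. Between 0 and 9 of the 10 genes were then called higher and 0 to 1 lower, beside 413 to 10071 and 37 to 1467 of all genes, and 1 to 64 and 2 to 84 in the lists. The highest counts came without siControl replicate 1, when the spread comes from the close siCNOT4 pair alone, except that 1467 lower calls came without siControl replicate 2. The lone library of a group is there assumed to vary like the other group. For the 10 genes, counts were 9 and 1 without siControl replicate 1, 6 and 1 without siControl replicate 2, and 0 and 0 without either siCNOT4 library.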
